A study of Mus musculus with 6 samples.

Results

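Translation initiation factors bring the initiator tRNA, the mRNA and the ribosomal subunits together at the start codon. The genes encoding them were taken from the deposited RNA-seq table by symbol, as every gene whose symbol starts with Eif1 to Eif6. Eif2s3x and Eif2s3y, the X-linked and Y-linked genes for the gamma subunit of eIF2, were left out, as were the eIF5A genes, the eIF2 kinases and the eIF4E-binding proteins. This rule gave 43 of the 17348 genes in the table: 5 in the eIF1 group, 9 in eIF2, 14 in eIF3, 12 in eIF4, 2 in eIF5 and 1 in eIF6. RNA was taken from the mouse cerebral cortex at E18.5 in 3 control samples (Ctrl, labelled WT) and 3 Ybx1 conditional knockout samples (cKO). The cKO animals carried Nestin-Cre and 2 floxed Ybx1 alleles from which Cre removes the later exons, and the study's text describes the control littermates both as Ybx1 fl/fl and as wild type. Nestin-Cre acts mainly in neural progenitors, whose neurons and glia inherit the deletion, and is not expected to act in most vascular, meningeal and microglial cells, in which Ybx1 was not measured separately here. Ybx1 encodes an RNA-binding protein, and the comparison asks which mRNA levels in the cortex differ when it is lost. Whether a library came from 1 embryo or several was not given in the sources used here.

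In cap-dependent initiation, eIF2 delivers the initiator tRNA to the small ribosomal subunit, and eIF2B reloads eIF2 with GTP after each round. eIF3, the largest of the factors, sits on the small subunit and links it to the mRNA and to the eIF4 proteins. Of these, eIF4E binds the cap, eIF4G is the scaffold, eIF4A is a helicase that unwinds the leader of the mRNA, and eIF4B and eIF4H stimulate that helicase. eIF1 and eIF1A govern scanning and the choice of start codon, eIF5 triggers GTP hydrolysis on eIF2, eIF5B joins the subunits, and eIF6 holds the large subunit apart. In the developing cortex, the demand for new protein is high in dividing progenitors and in neurons that are growing axons and dendrites.

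The 6 libraries held 15091951 to 16885451 estimated counts each. Ybx1 had 13950 to 22152 counts in Ctrl and 387 to 394 in cKO, which bears out the labels. The Y-linked transcripts Ddx3y and Kdm5d had 714 to 1118 counts in the Ctrl libraries and 0 to 1 in the cKO libraries, so the sex of the embryos and the genotype cannot be told apart. Ctrl replicate 2 stood apart from the other controls in a way that followed transcript length, and results are given with and without it. The labelled tissue was borne out by its markers, since 5 markers of deep-layer neurons summed to 711 to 887 CPM and 9 of radial glia, the neural progenitors (Pax6 among them), to 750 to 998 CPM per library, while 4 of choroid plexus summed to 0.189 to 0.639 CPM. The 6 striatal neuron markers summed to 190 to 232 CPM and the 6 erythroid markers to 982 to 1350 CPM per library. The part of striatum and blood in the libraries was not tested. The 6 endothelial and pericyte markers summed to 294 to 348 CPM in Ctrl and 330 to 401 CPM in cKO. Of these, 2 of 6 were higher at an unadjusted p under 0.05 (edgeR), beside 3.14% of all tested genes. Also higher at that level were 1 of 9 radial glia and 1 of 5 astrocyte markers. The 4 meningeal markers summed to 5.45 to 6.32 CPM in Ctrl and 7.60 to 8.85 CPM in cKO, with 0 of the 2 that were tested at that level. The part of any of these cells in the values was not tested. The meningeal CPM sums did not overlap between the groups, and those of the 12 other cell types and of proliferating cells did. In bulk tissue, fewer cells of a type and less RNA per cell cannot be told apart.

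No initiation factor gene passed an adjusted p of 0.05 in the comparison of all genes, and those with the smallest p-values were all lower in the cKO cortex. Of the 43 genes, 42 had enough counts to be tested. edgeR's quasi-likelihood test called 0 of the 42 after Benjamini-Hochberg adjustment, against 10 of all 13570 tested genes (0.0737%), whereas DESeq2 called 2, Eif3f and Eif3h, against 0.718% of the genes for which it gave an adjusted p. At an unadjusted p under 0.05, 6 of the 42 (14.3%) were lower and 0 were higher, beside 3.49% lower and 3.14% higher among all tested genes. These were Eif3f, Eif3h, Eif3k and Eif3l of the eIF3 complex, Eif4b and Eif2b4. The fitted log2 fold change (cKO over Ctrl) was negative for 30 of the 42 members (71.4%) and for 49.4% of all tested genes. Without Ctrl replicate 2, 6 members were again lower at an unadjusted p under 0.05, beside 6.55% of the 13687 genes then tested, with Eif5b in place of Eif2b4, and 25 of the 42 fold changes were negative. The median change over the members was small, at -0.085 on the log2 scale against 0.0027 for all tested genes; it was -0.027 without Ctrl replicate 2 and turned positive (0.057) on the deposited TPM scale, on which the median of all tested genes was itself shifted by 0.13. For 32 of the 42 genes the 95% interval of the change lay within 1.5-fold of no change.

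**Figure D1:**
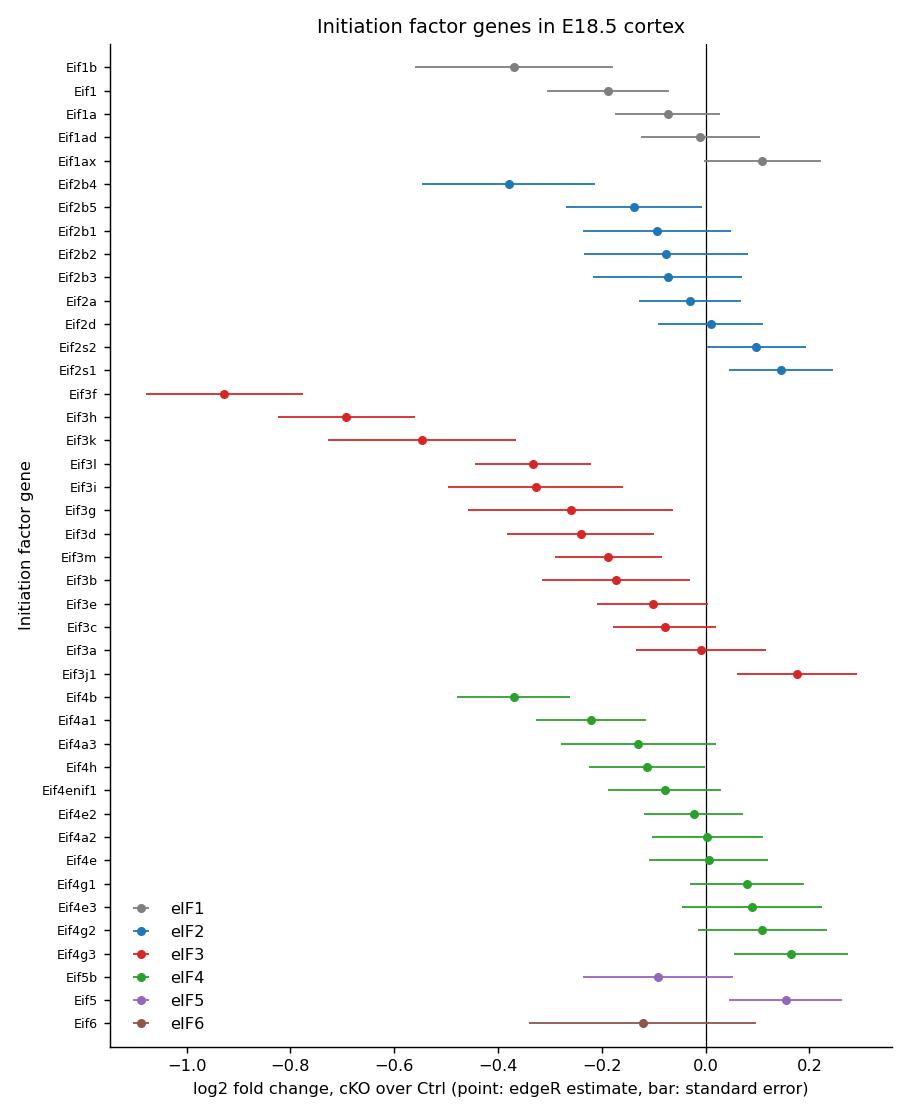
Fitted log2 fold change (x axis, cKO over Ctrl) of the 42 tested initiation factor genes, sorted within their groups and coloured by group, with bars for the standard error. The estimates run from -0.93 for Eif3f to 0.18 for Eif3j1, and 12 of the 13 tested eIF3 genes lie to the left of 0.

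The sharpest difference was in Eif3f, which encodes a subunit of the eIF3 core. The gene lies on the forward strand of chromosome 7 (chr7:108934417-108942951, GRCm38, GENCODE M21). Its level was 216, 289 and 196 CPM (counts scaled to library size after TMM normalisation) in Ctrl replicates 1, 2 and 3, and 129, 118 and 122 CPM in cKO replicates 1, 2 and 3. The groups did not overlap, and the 3 cKO values lay close together while the Ctrl values spread widely, with replicate 2 the highest. The mean was 234 ± 49.0 CPM (SD, n = 3) in Ctrl and 123 ± 5.87 CPM (SD, n = 3) in cKO, or 52.6% of the Ctrl mean. The log2 fold change was -0.93 ± 0.15 (SE), with a 95% interval from -1.27 to -0.58. Its unadjusted p from edgeR, 1.77e-04, gave an adjusted p of 0.109 over all tested genes. Without Ctrl replicate 2 the change was -0.75 with an adjusted p of 0.0023.

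The starts of these genes were also read for a sequence feature of translation mRNAs. Many mRNAs of the translation machinery open with a cytosine followed by an unbroken run of pyrimidines, the 5′ terminal oligopyrimidine (TOP) motif. A simple form of it was searched for on the gene's strand, as a C at the annotated first base followed by at least 4 bases that are each C or T, in the RefSeq windows around gene starts (GRCm38.p6). It was present in 823 of 32851 windows (2.51%), in 14 of the 62 ribosomal protein genes found there, and in 1 of the 34 initiation factor genes found there, Eif3f, a share near that of all windows. The other 9 initiation factor genes, Eif3h among them, were not searched. The starts of the 5 genes with an unadjusted p under 0.05 that these windows held are given as 10 bases before and 16 bases from the annotated first base, with the C at that base and any pyrimidine run from it in capitals. An annotated start can differ from the start used in cortex, and absence of a match says only that these letters do not stand at that position.
Eif3f: tctaggctctCTCTCTTTCTCggcaa
Eif3k: aaccggcgctggtgctgaaagcgcct
Eif3l: gagttcttcttccgctctctcccacg
Eif4b: tcccgtcggaCgccgcgccaccccct
Eif2b4: cccagtgcacgccggaagttgtagtc
In Eif3f the run is 11 bases long, in Eif4b the C stands alone, and in Eif3k, Eif3l and Eif2b4 the first base is no C.

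Eif3h, another core subunit and the eIF3 gene with the highest mean TPM, came second. It lies on the reverse strand of chromosome 15 (chr15:51786558-51865523). Ctrl replicates 1, 2 and 3 had 215, 258 and 186 CPM, and cKO replicates 1, 2 and 3 had 135, 136 and 137 CPM. Every cKO library was below every Ctrl library, and the cKO values were almost equal. The mean was 220 ± 36.4 CPM (SD, n = 3) in Ctrl and 136 ± 0.894 CPM (SD, n = 3) in cKO, or 61.9% of the Ctrl mean. The log2 fold change was -0.69 ± 0.13 (SE), with a 95% interval from -0.99 to -0.39 and an adjusted p of 0.210 (edgeR; unadjusted 5.47e-04). Without Ctrl replicate 2 it was -0.56 with an adjusted p of 0.0131. Eif3f and Eif3h, which encode the MPN-domain pair of eIF3, were also the only members with a change of at least 1.5-fold.

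Eif3k and Eif3l encode a pair of neighbouring subunits that some eukaryotes lack. Eif3k (chr7:28971372-28981864, reverse strand) had 81.6, 110 and 63.4 CPM in Ctrl replicates 1, 2 and 3 and 59.7, 56.7 and 58.2 CPM in cKO replicates 1, 2 and 3. The lowest Ctrl library was only slightly above the highest cKO library. Its log2 fold change was -0.55 ± 0.18 (SE), with an adjusted p of 0.577 (edgeR; unadjusted 0.0146). It became -0.32 without Ctrl replicate 2.
Eif3l (chr15:79075179-79094405, forward strand) had 136, 154 and 124 CPM in Ctrl and 109, 106 and 113 CPM in cKO, in the same order. Its groups did not overlap either, and replicate 2 was again the highest Ctrl library. The log2 fold change was -0.33 ± 0.11 (SE), with an adjusted p of 0.585 (edgeR; unadjusted 0.0157). It was -0.25 without Ctrl replicate 2.

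**Figure D2:**
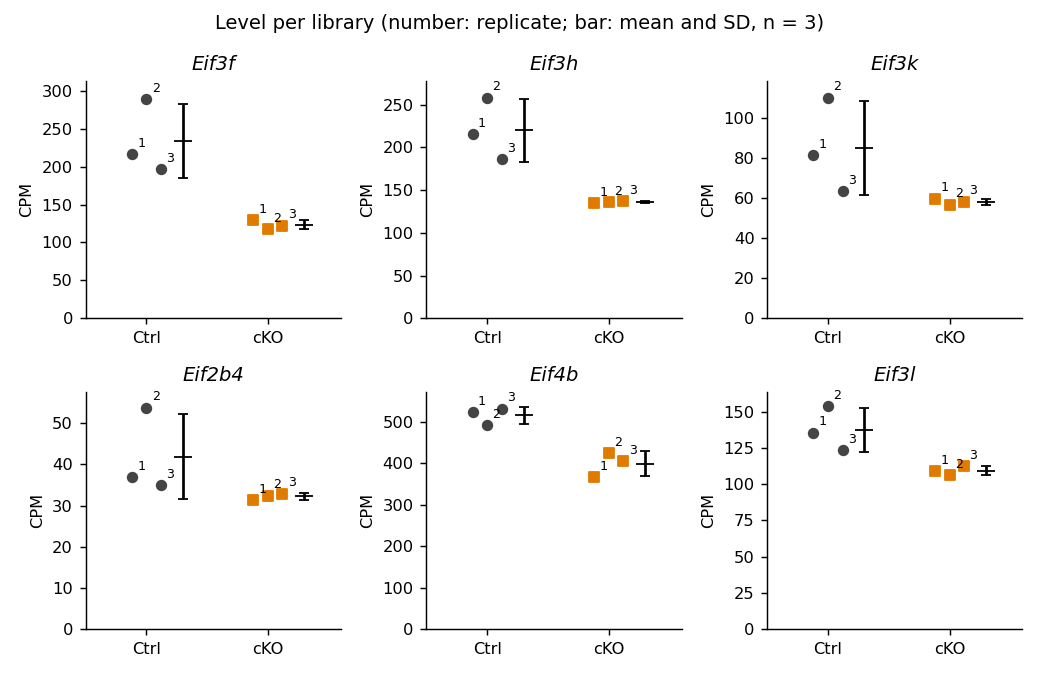
CPM per library (y axis, from 0) of the 6 members with an unadjusted p under 0.05, in Ctrl (circles) and cKO (squares), each point marked with its replicate number; the bar beside each group is the mean and SD (n = 3). In each of the 6 genes, which were picked by p-value from these same libraries, every cKO library lies below every Ctrl library. Ctrl replicate 2 is the highest in all but Eif4b. Of all 42 tested members, 9 (21.4%) were without overlap and lower in cKO, beside 6.93% of all tested genes.

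Across eIF3 most fold changes were negative, but their sizes were uneven, and for several subunits the difference lay largely in Ctrl replicate 2. Of 13 tested eIF3 genes, 4 (30.8%) were lower at an unadjusted p under 0.05 and 0 were higher, and 12 (92.3%) had a negative fold change, beside 3.49% lower and 49.4% negative among all tested genes. The Ctrl and cKO libraries did not overlap, with cKO lower, in 6 of the 13 (46.2%), against 6.93% of all tested genes. The median log2 fold change was -0.24, and it stayed negative under each scaling, at -0.076 on the TPM scale and -0.19 on the FPKM scale, and it ran from -0.34 to -0.11 with single libraries left out, smallest in size without Ctrl replicate 2. Without that library the same 4 genes were lower at an unadjusted p under 0.05 and 11 of the 13 fold changes were negative, beside 6.55% lower and 48.9% negative among all genes then tested. All 4 genes with an unadjusted p under 0.05 belong to the structural core of eIF3, the octamer of subunits a, c, e, f, h, k, l and m. All 8 octamer genes had a negative fold change, with a median of -0.26. The median of the 5 tested genes outside the octamer was similar with all libraries, at -0.24, with 4 of them negative. Without Ctrl replicate 2 the middle value of those 5 was -0.026 (Eif3b). The octamer genes were then all still negative, from -0.75 for Eif3f to -0.087 for Eif3c. Eif3c and Eif3m did not overlap between the groups and differed little in size, with log2 fold changes of -0.08 and -0.19. Eif3e (-0.10) and Eif3a (-0.01), the largest subunit, were close to no difference, and the sign of Eif3a changed when single libraries were left out. Of the 5 tested genes outside the octamer (Eif3b, Eif3d, Eif3g, Eif3i and Eif3j1), none was without overlap. In the comparison as reported, none of them had an unadjusted p under 0.05. Their fold changes were -0.33 for Eif3i, -0.26 for Eif3g, -0.24 for Eif3d, -0.17 for Eif3b and 0.18 for Eif3j1. They were smaller in size without Ctrl replicate 2, at -0.12 for Eif3i, -0.071 for Eif3d, -0.026 for Eif3b and 0.094 for Eif3j1. With length and GC content corrected for, Eif3i stayed at -0.32 (edgeR unadjusted p 0.0418) and Eif3d at -0.20 (unadjusted p 0.0516). Eif3b was then at -0.12, Eif3g at -0.079 and Eif3j1 at 0.072. Without Ctrl replicate 3 all 5 were larger in size, with Eif3i at -0.48 (edgeR unadjusted p 0.00723). Eif3d encodes a subunit that can itself bind the cap, and Eif3j1 encodes a loosely held subunit. Eif3g was 66.3, 110 and 64.4 CPM in Ctrl replicates 1, 2 and 3 and 66.4, 69.2 and 65.8 CPM in cKO, so that its difference lay in 1 control library, and it was 0.04 without it. The difference between octamer and other subunits was not tested. Eif3j2, a near-identical copy of Eif3j1, had 3 to 13 counts per library and was not tested; reads of the 2 copies could be assigned to either.

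**Figure D3:**
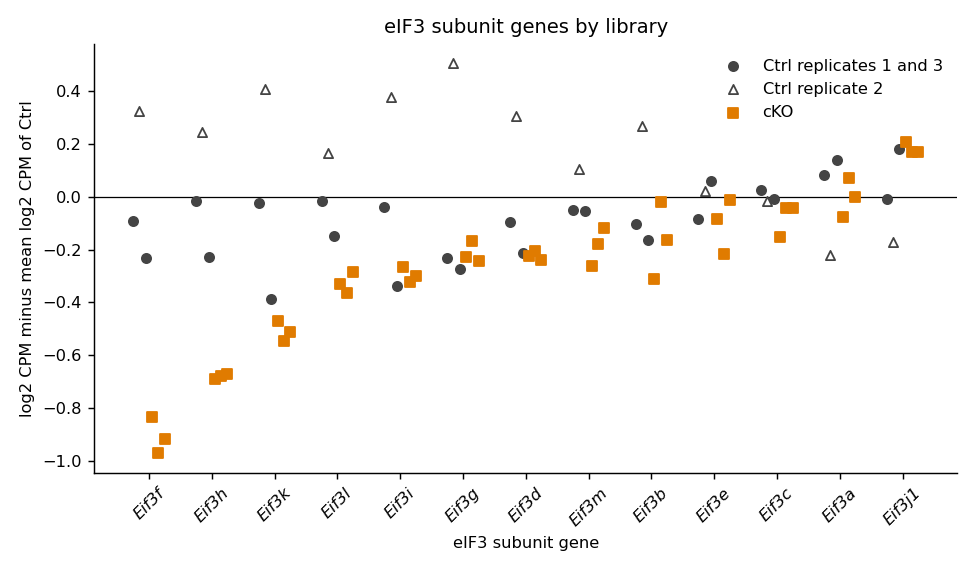
log2 CPM of each tested eIF3 gene (x axis) in every library, minus the mean of the Ctrl libraries for that gene (y axis); filled circles are Ctrl replicates 1 and 3, open triangles Ctrl replicate 2 and squares cKO. For Eif3f and Eif3h the cKO libraries lie well below the 3 Ctrl libraries, whereas for Eif3g they lie close to Ctrl replicates 1 and 3 and below replicate 2. For Eif3i they lie close to Ctrl replicate 3, below replicate 1 and further below replicate 2.

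The summed level of the eIF3 genes separated the groups as well. On the CPM scale the eIF3 genes summed to 2170, 2412 and 2104 in Ctrl replicates 1, 2 and 3 and to 1831, 1897 and 1899 in cKO replicates 1, 2 and 3. On the TPM scale, which accounts for length, the sums were 3199, 3340 and 3110 in Ctrl and 2806, 2788 and 2843 in cKO. Every cKO sum was below every Ctrl sum on both scales. Without Eif3f, Eif3h, Eif3k and Eif3l, the eIF3 genes with an unadjusted p under 0.05, the TPM sums overlapped. They were then 1774, 1786 and 1835 in Ctrl and 1779, 1808 and 1840 in cKO. The genes left out were picked by p-value from these same libraries, so their removal brings the sums closer by construction. The median of all tested genes was itself shifted by 0.13 on the TPM scale. The CPM sums without Eif3f, Eif3h, Eif3k and Eif3l stayed lower in cKO. Those were 1521, 1600 and 1534 in Ctrl and 1398, 1480 and 1469 in cKO.

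In the eIF4 group the genes did not share a direction. Of 12 tested, 1 was lower at an unadjusted p under 0.05 (8.33%), 6 fold changes were negative and 6 positive, beside 3.49% lower and 49.4% negative among all tested genes. The median was -0.01, and its sign turned on the TPM scale (0.12), on the FPKM scale (0.02) and without Ctrl replicate 3 (0.03). The median of all tested genes was itself 0.13 on the TPM scale and 0.035 on the FPKM scale. Eif4b, the cofactor of the eIF4A helicase, was the member that stood out (chr15:102073773-102097173, forward strand). It had 524, 492 and 533 CPM in Ctrl replicates 1, 2 and 3 and 367, 425 and 406 CPM in cKO replicates 1, 2 and 3. The groups did not overlap, and here Ctrl replicate 2 was the lowest control. The mean was 516 ± 21.2 CPM (SD, n = 3) in Ctrl and 399 ± 29.8 CPM (SD, n = 3) in cKO, or 77.4% of the Ctrl mean. The log2 fold change was -0.37 ± 0.11 (SE), with an adjusted p of 0.490 (edgeR; unadjusted 0.00791). Leaving out Ctrl replicate 2 gave -0.40 (edgeR adjusted p 0.0626). Eif4h, which encodes the related cofactor, differed by -0.11, and its groups overlapped.

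Eif4a1, the helicase gene with the highest mean TPM of all members, was 843, 949 and 861 CPM in Ctrl and 744, 764 and 769 CPM in cKO. Its groups did not overlap, yet the log2 fold change of -0.22 did not reach an unadjusted p of 0.05 (0.0673; adjusted 0.789, edgeR). The second helicase gene, Eif4a2, was level between the groups (0.00), and Eif4a3, which encodes the helicase of the exon junction complex rather than an initiation factor, differed by -0.13. The scaffold genes Eif4g1, Eif4g2 and Eif4g3 were all on the higher side in cKO, by 0.08, 0.11 and 0.16, with overlapping groups. Without Ctrl replicate 2, the lowest control for each of them, the differences were 0.021, 0.025 and 0.11. Correcting for length and GC content turned the sign of Eif4g2 (-0.05). The cap-binding genes Eif4e, Eif4e2 and Eif4e3 lay between -0.02 and 0.09. Eif4enif1, which encodes the eIF4E transporter, differed by -0.08.

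In the eIF2 group, the subunits of eIF2 and those of its exchange factor eIF2B pointed in opposite directions, by amounts that were mostly small. Eif2s2 (eIF2 beta), the member of this group with the highest mean TPM, had 148, 156 and 148 CPM in Ctrl and 160, 161 and 163 CPM in cKO. Although these groups did not overlap, the log2 fold change was only 0.10, with an unadjusted p of 0.332 from edgeR. It was the 1 member without overlap in which cKO was higher, where 7.35% of all tested genes were. Eif2s1 (eIF2 alpha, the subunit whose phosphorylation slows initiation) differed by 0.15, with overlapping groups. All 5 eIF2B genes had negative fold changes, from -0.38 for Eif2b4 to -0.07 for Eif2b3. Without Ctrl replicate 2, only Eif2b4 of these kept its sign, at -0.16. Eif2b4 (chr5:31187558-31193430, reverse strand) encodes the delta subunit and had 36.9, 53.8 and 34.9 CPM in Ctrl replicates 1, 2 and 3 and 31.4, 32.4 and 32.9 CPM in cKO. The cKO libraries lay just under Ctrl replicates 1 and 3 and far under replicate 2. The log2 fold change was -0.38 ± 0.17 (SE), with an adjusted p of 0.748 (edgeR; unadjusted 0.0485). An exon of Eif2b4 overlaps Snx17 on the opposite strand, and reads of these genes cannot be told apart if the counting did not use strand. Eif2a and Eif2d, which encode factors that can bring tRNA to the ribosome independently of eIF2, differed by -0.03 and 0.01. The median of the 9 eIF2 genes was -0.073, and its sign turned without Ctrl replicate 2 (0.017) and on the TPM scale (0.089). On that scale the median of all tested genes was 0.13.

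The remaining groups held no gene with an unadjusted p under 0.05. In the eIF1 group, Eif1 and Eif1b, which encode start-codon selection factors, differed by -0.19 and -0.37, and by -0.096 and -0.10 without Ctrl replicate 2. Eif1b was 132, 216 and 136 CPM in Ctrl and 137, 126 and 113 CPM in cKO, so its groups overlapped and replicate 2 was again the high control. Eif1a and the X-linked Eif1ax, both encoding eIF1A, differed by -0.07 and 0.11, and Eif1ad, which encodes a protein with an eIF1A-like domain, by -0.01. Eif5 differed by 0.15 and Eif5b by -0.09. Eif5b was 146, 114 and 168 CPM in Ctrl and 133, 134 and 134 CPM in cKO, with replicate 2 the lowest control, and without it the difference was -0.23 (edgeR adjusted p 0.296). Eif6 differed by -0.12, and by 0.18 in the opposite direction without Ctrl replicate 2.

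Set side by side, eIF3 had the most negative median of the 3 large groups, at -0.24 against -0.073 for eIF2 and -0.01 for eIF4. The median log2 level of the eIF3 genes against the Ctrl mean was -0.04, 0.25 and -0.16 in Ctrl replicates 1, 2 and 3 and -0.26, -0.20 and -0.24 in cKO replicates 1, 2 and 3. All cKO libraries were thus below all Ctrl libraries in eIF3. In eIF2 the same value was -0.02, 0.17 and -0.03 in Ctrl and -0.04, -0.06 and -0.04 in cKO, where the step to Ctrl replicates 1 and 3 was slight. In eIF4 it ran from -0.08 to 0.05 in Ctrl and from -0.05 to 0.01 in cKO, so that the groups overlapped. The differences between these groups of genes were not tested. The 81 tested ribosomal protein genes, the other large part of the translation machinery, had a median of -0.56. Of these, 67 (82.7%) were lower at an unadjusted p under 0.05, beside 3.49% of all tested genes, and 2 passed the adjusted threshold in edgeR. Their list summed to 25207, 35824 and 22994 CPM in Ctrl replicates 1, 2 and 3, with replicate 2 far the highest. In cKO replicates 1, 2 and 3 it summed to 17769, 17700 and 18325 CPM.

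Per length, the most abundant member was Eif4a1, with a mean of 1163 TPM over the 6 libraries, followed by Eif4a2 with 765, Eif4g2 with 653, Eif1 with 552 and Eif1b with 516 TPM. Eif3h (424 TPM) led the eIF3 genes, ahead of Eif3e (385 TPM) and Eif3f (325 TPM). Eif4e3 (11.7 TPM) was the lowest of the tested members, next to Eif2b3 (32.1 TPM). The eIF2 genes summed to 563, 561 and 565 TPM in Ctrl replicates 1, 2 and 3 and to 611, 605 and 612 TPM in cKO, and eIF4 to 3932, 3584 and 4338 TPM in Ctrl and 4050, 4142 and 4179 TPM in cKO. The eIF2 sums were without overlap and higher in cKO on this scale, by less than the shift of the median gene. The eIF4 sums overlapped.

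Ctrl replicate 2 differed from the other controls by transcript length, and the initiation factor genes followed that closely. Across the 42 tested members, the log2 ratio of Ctrl replicate 2 over the other Ctrl libraries fell with the length of the longest annotated transcript (Pearson r = -0.85, Spearman rho = -0.86), as it did across 13385 tested genes with a length (r = -0.58, rho = -0.61). These points share 3 libraries and are genes, not independent replicates. Replicate 2 was above both other controls in 23 members and below both in 16, and above both in 9 of the 13 eIF3 genes. The fold change between cKO and Ctrl also ran with length across the members (r = 0.57, rho = 0.69), less so without Ctrl replicate 2 (r = 0.17, rho = 0.19) and after a correction for length and GC content (r = 0.27, rho = 0.30). The correction takes out a trend with length in each library, so the weaker relation after it follows by construction. With that correction, Eif3f was at -0.90 (edgeR adjusted p 0.0042) and Eif3h at -0.59 (adjusted p 0.0035), and these were the 2 members past the threshold, with 1.11% of all tested genes past it. With the same correction, Eif3k (-0.45), Eif3l (-0.30) and Eif4b (-0.38) kept their direction with adjusted p-values of 0.0667 to 0.0990. Without Ctrl replicate 2, and with no correction, Eif3f and Eif3h again passed, beside 0.891% of all genes.

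**Figure D4:**
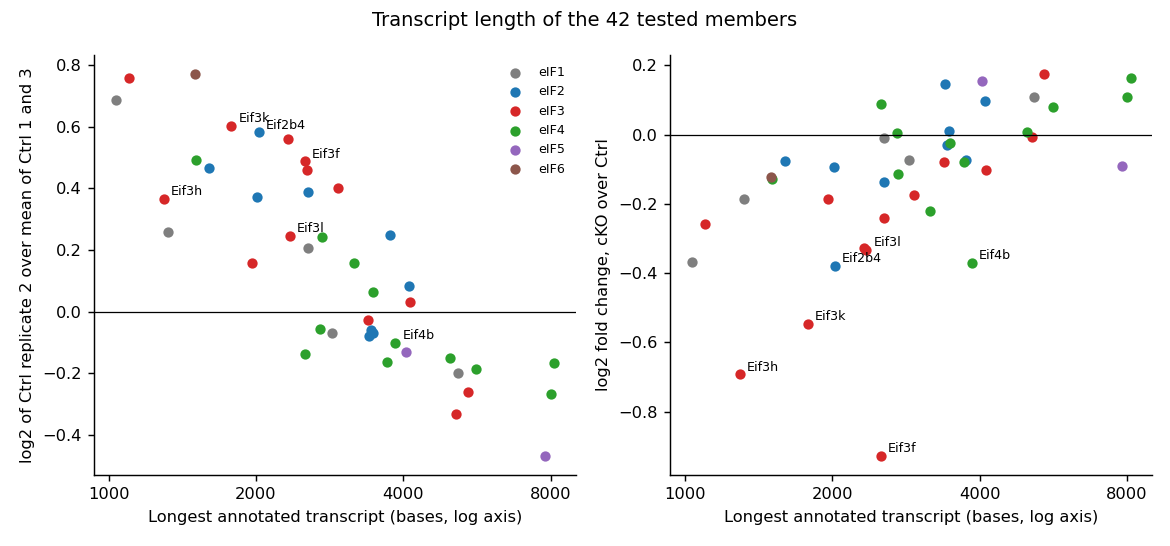
The 42 tested members by longest annotated transcript in bases (x axis, log scale), coloured by group. Left, log2 of Ctrl replicate 2 over the mean of Ctrl replicates 1 and 3 falls with length (Spearman rho = -0.86); right, the log2 fold change of cKO over Ctrl rises with length (rho = 0.69), with Eif3f lowest.

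Genes that act on these factors were taken as a separate list of 46, holding poly(A)-binding proteins, eIF4E-binding proteins, eIF2 kinases and phosphatase subunits, cap-binding proteins and helicases, and all were tested. None passed the adjusted threshold in edgeR, 5 were lower and 1 higher at an unadjusted p under 0.05, beside 3.49% lower and 3.14% higher among all tested genes, and the median log2 fold change was 0.01. The lower genes were Pabpc1 (-0.41, unadjusted p 0.00247) and Pabpc4 (-0.32, unadjusted p 0.0149), which encode the poly(A)-binding proteins that eIF4G contacts, and Abcf1 (-0.40, unadjusted p 0.00774), which encodes an ATPase that associates with eIF2. Ctif (-0.30, unadjusted p 0.0239) and Mknk2 (-0.28, unadjusted p 0.0415) were the other lower genes, encoding a partner of the nuclear cap-binding complex and a kinase of eIF4E. The higher gene was Paip2 (0.26, unadjusted p 0.0418), which encodes an inhibitor of poly(A)-binding protein. None of the 9 listed genes for the eIF2 kinases, phosphatase subunits that counteract them and regulators or targets of that pathway had an unadjusted p under 0.05.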

How the data were processed

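Poly(A) RNA-seq was done on 6 cortex libraries, 3 Ctrl and 3 cKO at E18.5. The authors deposited 1 gene table with RSEM expected counts, TPM and FPKM for each sample. Per the labels, the submitters' processing notes name HISAT2 2.2.1, Bowtie2 2.4.5 and RSEM 1.3.1, with GRCm38 and mm10 as builds; the annotation and the use of strand are not given in the sources used here. Groups were taken from the labels, which do not name separate litters, so p-values measure the spread between these samples.

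The deposited estimated counts were rounded and fitted with edgeR 4.0.16 (R 4.3.3; filterByExpr, TMM scaling, quasi-likelihood test, 13570 genes, Benjamini-Hochberg adjustment, threshold 0.05). CPM values use the TMM library sizes. The deposited TPM values were used for levels between genes, and deposited TPM and FPKM for medians of log2 ratios of group means with a pseudocount of 1. The common biological coefficient of variation was 0.147, and 3 counts correspond to 0.176 to 0.206 CPM. With 3 against 3 libraries an exact two-sided permutation test cannot go below p = 0.1, which it reached for each member without overlap. No pair of replicates agreed within sampling noise. On simulated data for this comparison, with 200 of 13573 genes changed, the test called 41.8% of those changed 1.5-fold. It called 85.1% of those changed 2-fold, and 9 unchanged genes. The simulated libraries held no shift of Ctrl replicate 2 with transcript length, so these shares need not hold for the real libraries.

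The members and gene lists were chosen with earlier results of these data known. Values per library and full statistics are given for members with an unadjusted p under 0.05 and for the member with the highest mean TPM in each of eIF2, eIF3 and eIF4. Alternatives were a replicate block, RLE size factors, DESeq2 1.42.0, other filters, TMM without ribosomal and translation genes, a length and GC correction (mgcv 1.9.3, longest GENCODE M21 transcript, 43 members with a value), leaving out each library, and an adjusted p under 0.1. Of the 43 genes, 12 shared a stretch of at least 200 bases and 95% identity with another gene and 18 overlapped an exon of another gene; their counts may include reads of those genes. Among the 6 genes with the smallest p-values this was so for Eif3h (such a stretch) and Eif2b4 (an overlap).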

Additional observations from a re-analysis of the deposited data

How the results depend on the processing

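The count of all genes past the threshold depended on the processing: against 10, it was 151 with the length and GC correction, 160 with that correction and the replicate block, 93 with DESeq2, 18 at an adjusted p under 0.1, and 8 to 122 with single libraries left out, the highest without Ctrl replicate 2. Of the initiation factor genes, 0 passed in the comparison as reported, 2 (Eif3f and Eif3h) with the length and GC correction, with that correction and the replicate block, and with DESeq2, and 0 to 2 with single libraries left out (2 without Ctrl replicate 2, 1 without Ctrl replicate 3). The number lower at an unadjusted p under 0.05 was 6 in the comparison as reported, beside 3.49% of all tested genes, and 10 with the correction and the block. With single libraries left out it was 4 to 9, lowest without cKO replicate 2. Without Ctrl replicate 2 it was 6, beside 6.55% of all genes then tested. The share over all genes was not worked out for the other fits, so their counts cannot be set against it. Adjusted p-values of Eif3f ran from 1.4e-05 to 0.81 over 14 alternative fits, and those of Eif3h from 8.8e-04 to 0.9999. The cause of these shifts was not tested.

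On the TPM scale the median log2 ratio was 0.057 for all members, 0.089 for eIF2, -0.076 for eIF3 and 0.12 for eIF4, beside 0.13 for all tested genes. With single libraries left out the medians ran from -0.10 to -0.027 for all members and from -0.096 to 0.017 for eIF2, in both cases highest without Ctrl replicate 2.

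Ctrl and cKO libraries share the replicate numbers 1 to 3. The deviations of same-numbered libraries correlated at 0.088, 0.062 and 0.23, so the numbers were not taken to pair the samples, although each of the 6 libraries correlated best with its own number. A replicate block gave 11 genes past the threshold and 0 members.

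Of the 42 members, 26 kept their sign in every fit, 18 of them lower in cKO. The other 16 changed sign in at least 1 fit, and all of them lay within 0.13 of no difference as reported except Eif3g and Eif2b5. With the length and GC correction, without and with the block, the log2 fold change became 0.013 and 0.011 for Eif1ad, 0.038 and 0.039 for Eif2b2, -0.023 and -0.022 for Eif4a2, -0.086 and -0.082 for Eif4e, -0.052 and -0.043 for Eif4g2, and 0.032 and 0.033 for Eif6. Without a filter on low counts it became -0.0053 for Eif2d, -0.012 for Eif4a2 and -0.0083 for Eif4e, and with RLE size factors -0.00055 for Eif4a2. With single libraries left out it ran from -0.052 to 0.062 for Eif1ad, -0.051 to 0.0023 for Eif2a, -0.21 to 0.042 for Eif2b1, -0.21 to 0.097 for Eif2b2, -0.19 to 0.017 for Eif2b3, -0.23 to 0.0039 for Eif2b5, -0.028 to 0.049 for Eif2d, -0.11 to 0.061 for Eif3a, -0.40 to 0.040 for Eif3g, -0.031 to 0.057 for Eif4a2, -0.24 to 0.054 for Eif4a3, -0.042 to 0.11 for Eif4e, -0.13 to 0.0012 for Eif4enif1, -0.23 to 0.045 for Eif5b and -0.31 to 0.18 for Eif6. The cause was not tested. Each tested member had over 200 counts in every library.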
